A study of Mus musculus with 8 samples.

Results

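The 10 genes described here, *Cdh5*, *Pecam1*, *Esam*, *Cldn5*, *Kdr*, *Flt1*, *Tek*, *Tie1*, *Eng* and *Emcn*, code for junction proteins, growth factor receptors and a surface mucin that endothelial cells (EC) of most vascular beds share. They were taken by gene name from the 54532 genes of the deposited read count table, and each name matched 1 gene. RNAseq was done on FACS-sorted GFP+ (mG+) cells of female mice aged 8 months, in which Cre recombinase under the *Tie2e* promoter turned on membrane GFP in the *mTmG* reporter. KO libraries came from Tie2e-cre; TERT fl/fl; mTmG mice and WT libraries from Tie2e-cre; TERT+/+; mTmG mice, so both genotypes carried the Cre and the reporter. The 8 libraries form 4 pairs of 1 KO and 1 WT library: inguinal subcutaneous adipose tissue (SAT) of mice fed a high-fat diet (HFD), and SAT, gonadal visceral adipose tissue (VAT) and the gastrocnemius, a leg muscle, of chow-fed mice. The HFD was given from month 1 to month 8, and it is not stated if a library pools more than 1 mouse. With 1 library per group there is no replicate within a genotype, tissue and diet. The p-values below rest on the spread left after fitting tissue, diet and genotype over all 8 libraries. For each gene the tests also draw on the spread of the other genes.

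Library totals ran from 6214269 to 18855772 counts. Counts of *Tert*, the deleted gene, fell from 114 (WT) to 0 (KO) in the SAT HFD pair, from 70 to 11 in the SAT chow pair and from 24 to 7 in muscle, whereas VAT had 3 (WT) and 9 (KO). In VAT the order of the counts was thus opposite to the genotype labels. Counts this near the floor of 3 counts used here do not settle the genotypes, so its libraries are called the library labelled WT and the library labelled KO. In CPM (counts per 1e+06 counts of the library after scaling) *Tert* was at 0.333 in the former and 0.658 in the latter. The KO libraries of muscle and of SAT on chow were at 0.516 and 0.682 CPM, and their WT libraries at 1.47 and 4.33 CPM. The count of 0 in the SAT HFD KO library is below the floor, which stands at 0.232 CPM there. Other features set 2 libraries apart: the nuclear RNA *Malat1* was at 299 CPM in SAT chow WT against 2176 to 6005 CPM elsewhere, and *Gm26917* took 9.72% of the counts of SAT HFD WT against 0.195% to 1.07% elsewhere.

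Endothelial cells line blood vessels and are held together by adherens and tight junctions, whose opening lets plasma proteins and leukocytes pass. VE-cadherin (*Cdh5*) builds the adherens junction, PECAM1 is a homophilic immunoglobulin-family receptor at the cell border, ESAM is a junctional immunoglobulin-family molecule, and claudin-5 (*Cldn5*) seals the tight junction. VEGFR2 (*Kdr*) is the main signalling receptor for VEGF-A and VEGFR1 (*Flt1*) a high-affinity receptor that also acts as a VEGF trap, TIE2 (*Tek*) is the angiopoietin receptor with its partner TIE1 (*Tie1*), and endoglin (*Eng*) is a co-receptor for BMP9 and BMP10. Endomucin (*Emcn*) is a sialomucin of capillaries and veins. Several of these genes are also read outside endothelium: *Pecam1* is present on platelets, monocytes, neutrophils and subsets of lymphocytes, and *Tie2*-driven Cre lines are known to label blood cells as well as EC.

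The genes lie on 8 mouse chromosomes (GRCm38), with *Kdr* and *Flt1* both on chromosome 5 and *Tek* and *Tie1* both on chromosome 4. In the annotation 9 of the 10 shared no exon base with another gene, and *Eng* shared 61 exon bases with *Fpgs* on the opposite strand, which had at most 484 counts in a library. Promoter sequence from RefSeq (GRCm38.p6) was found for 7 of the 10 genes, and not for *Cdh5*, *Pecam1* and *Esam*. ETS factors such as ERG and FLI1 are known regulators of endothelial genes, so the 240 bases from 250 to 11 bases before the RefSeq start were searched on both strands for GGAAG and its complement CTTCC, a form of the ETS core. *Tie1* held 6 matches, in a window with 202 of its bases inside the gene as the count table places it, *Flt1* held 3, *Emcn*, with 1 base inside, 2, *Kdr* and *Eng* 1 each, and *Tek* and *Cldn5* none. Of 32817 promoters of the same length, 62.2% held at least 1 match, 27.4% at least 2 and 9.6% at least 3, shares to be read beside the 5 of 7 genes with a match. The promoters of the VEGF receptors, of the gene whose promoter drove the Cre, and of *Eng* and *Cldn5*, whose levels are compared below, are given 5′ to 3′ with matches in capitals:
Kdr promoter, chr5:75978466-75978705, minus strand: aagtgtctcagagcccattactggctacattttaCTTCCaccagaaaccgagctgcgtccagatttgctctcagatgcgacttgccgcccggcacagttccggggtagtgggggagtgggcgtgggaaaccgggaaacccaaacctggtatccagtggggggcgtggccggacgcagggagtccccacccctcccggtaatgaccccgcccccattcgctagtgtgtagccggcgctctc
Flt1 promoter, chr5:147726022-147726261, minus strand: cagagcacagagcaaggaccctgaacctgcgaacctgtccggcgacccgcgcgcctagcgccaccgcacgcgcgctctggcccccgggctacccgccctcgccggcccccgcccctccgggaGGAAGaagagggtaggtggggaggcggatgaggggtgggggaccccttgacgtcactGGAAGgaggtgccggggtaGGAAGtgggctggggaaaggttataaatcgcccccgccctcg
Tek promoter, chr4:94739039-94739278, plus strand: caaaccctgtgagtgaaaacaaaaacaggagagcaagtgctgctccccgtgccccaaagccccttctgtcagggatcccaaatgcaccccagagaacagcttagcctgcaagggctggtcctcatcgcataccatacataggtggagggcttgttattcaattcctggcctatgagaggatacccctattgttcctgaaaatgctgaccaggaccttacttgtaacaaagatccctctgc
Eng promoter, chr2:32646345-32646584, plus strand: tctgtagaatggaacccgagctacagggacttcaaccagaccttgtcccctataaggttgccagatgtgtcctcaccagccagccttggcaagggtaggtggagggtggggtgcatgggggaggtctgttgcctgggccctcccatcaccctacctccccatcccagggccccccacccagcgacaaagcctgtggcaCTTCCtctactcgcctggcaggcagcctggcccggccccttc
Cldn5 promoter, chr16:18776597-18776836, plus strand: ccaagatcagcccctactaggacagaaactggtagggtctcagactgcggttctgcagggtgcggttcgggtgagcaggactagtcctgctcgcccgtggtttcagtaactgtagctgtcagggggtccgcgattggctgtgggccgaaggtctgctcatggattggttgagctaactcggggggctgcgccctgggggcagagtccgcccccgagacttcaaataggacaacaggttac
In these windows *Flt1* carried its 3 matches in 1 orientation, and *Kdr* and *Eng* each carried theirs in the other.

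The 10 genes together held few of the reads of the sorted cells, and least in SAT. Their counts summed to 2307 in SAT HFD WT, or 0.0371% of the library and the lowest share, and to 33737 in muscle KO, or 0.261% and the highest. Scaled to CPM by TMM over all genes, the sum was 334 (WT) and 353 (KO) in SAT on HFD, 569 and 729 in SAT on chow, 2163 (labelled WT) and 1805 (labelled KO) in VAT, and 2157 and 2486 in muscle. As a check of the sort, CD45 (*Ptprc*), the pan-leukocyte antigen that endothelium lacks, was read at 1229 to 2550 CPM in the libraries, more than any of the 10 genes. Per kb of gene length, *Ptprc* stood at 27.7 and 21.0 times the level of *Cdh5* in SAT on HFD, at 8.90 and 7.27 times in SAT on chow, at 1.11 and 1.29 times in VAT, and at 1.03 and 0.801 times in muscle. Sorted mG+ cells in these libraries thus held RNA of leukocytes beside that of EC, in a ratio that differed between tissues. In bulk libraries such as these, fewer cells of a type and less RNA per cell cannot be told apart.

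The other cell types differed between the tissues as well, which matters because every level is a share of the library. The T cell markers summed to 1816 to 4699 CPM over the SAT libraries, 243 and 342 CPM in VAT, and 542 and 784 CPM in muscle. B cell markers summed to 2372 to 4634 CPM in SAT, 713 and 1107 CPM in VAT, and 2110 and 2124 CPM in muscle. Macrophage markers summed to 13560 and 13380 CPM in VAT against 407 to 5534 CPM elsewhere, and neutrophil markers to 27500 and 31970 CPM in muscle against 60.9 to 289 CPM elsewhere. Of the macrophage sums in muscle, 5534 and 5315 CPM, *Lyz2* alone gave 4817 and 4973 CPM. Stromal markers summed to 838 to 3533 CPM, mural markers to 71.7 to 748 CPM, adipocyte markers to 88.1 to 871 CPM, platelet and erythroid markers to 41.9 to 681 CPM, epithelial markers to 6.65 to 274 CPM and skeletal muscle markers to 8.80 to 139 CPM. The adipocyte sum was led by *Fabp4* in each library. This gene gave 409 of 533 CPM in VAT labelled WT and 745 of 871 CPM in VAT labelled KO. In muscle it gave 309 of 376 CPM (WT) and 386 of 452 CPM (KO). The adipocyte sum thus rested mainly on *Fabp4*, and the cell type its RNA came from was not tested. The pan-leukocyte list summed to 5906 to 12310 CPM in all 8 libraries.

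**Figure D1:**
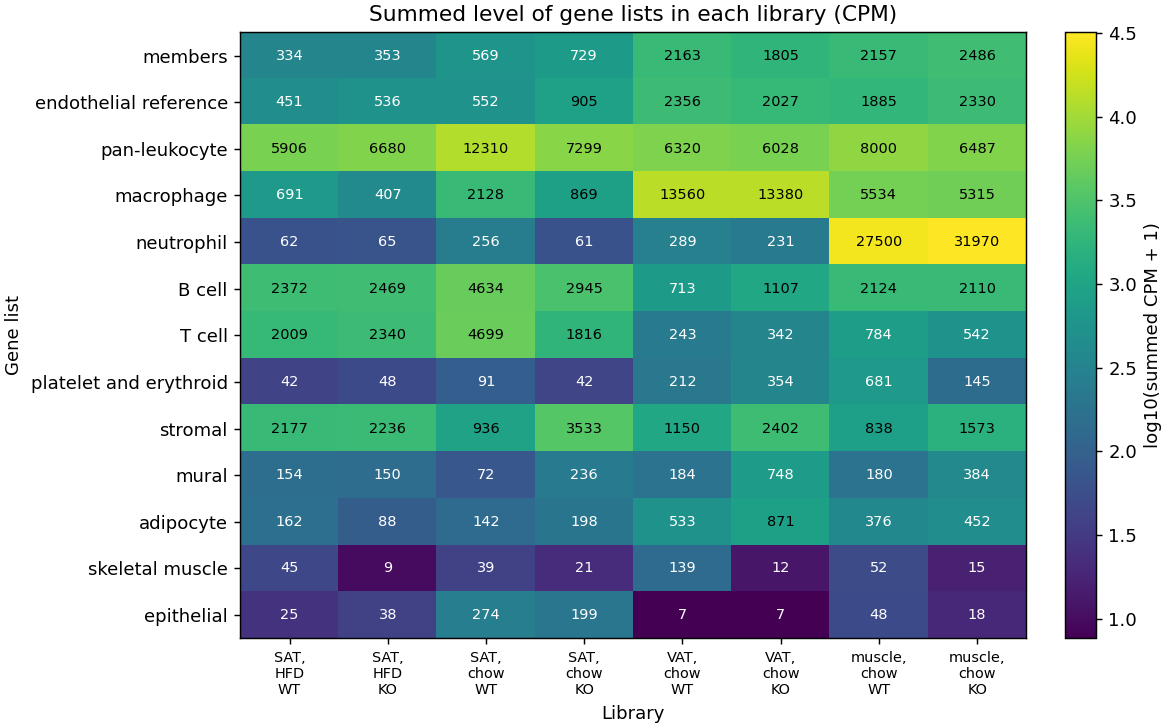
Summed CPM of the 10 genes, of 20 other endothelial genes used for scaling, and of the 11 marker lists (rows) in each of the 8 libraries (columns); colour is log10 of the sum plus 1 and the number in a cell is the sum. The 10 genes sum to 334 to 729 CPM in the SAT libraries and 1805 to 2486 CPM in VAT and muscle, while T cell markers run the other way.

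Of the junction genes, *Cdh5* was read at 13.6 CPM (WT) and 21.2 CPM (KO) in SAT on HFD, 55.3 and 80.6 CPM in SAT on chow, 302 (labelled WT) and 219 (labelled KO) CPM in VAT, and 333 and 370 CPM in muscle. The 4 tissue and diet conditions did not overlap for this gene, and the lowest and highest library differed 27.3-fold. *Pecam1*, in the same order of libraries, was read at 145, 204, 270, 247, 454, 360, 479 and 553 CPM. It had the smallest span of the 10 genes, 3.82-fold, and was the most abundant of them in CPM in each library. *Esam* was read at 20.8, 18.5, 25.8, 32.7, 114, 115, 93.8 and 107 CPM. Its WT and KO values lay close together in each tissue, and VAT stood above muscle. *Cldn5* was read at 24.1, 15.7, 22.0, 29.3, 81.7, 117, 71.3 and 73.2 CPM. For *Cldn5* the libraries of SAT on HFD and on chow overlapped, and VAT again stood above muscle in CPM. The counting intervals of VAT labelled WT (75.9 to 87.8 CPM) and muscle KO (68.7 to 77.9 CPM) overlapped here too.

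*Kdr*, of the VEGF receptors, was read at 24.0 CPM (WT) and 17.7 CPM (KO) in SAT on HFD, 27.5 and 89.3 CPM in SAT on chow, 274 and 245 CPM in VAT, and 281 and 278 CPM in muscle. *Flt1*, in the same order, was read at 18.1, 7.34, 26.4, 84.2, 269, 226, 311 and 343 CPM, a 46.8-fold span and the widest of the 10 genes. Both receptors were low in SAT, and in SAT on chow both were higher in the KO library than in the WT library. *Tek* was read at 5.78, 22.0, 16.2, 30.5, 116, 77.5, 96.2 and 122 CPM. The lowest *Tek* value, in SAT HFD WT, rested on 40 counts. *Tie1* was read at 15.2, 9.73, 24.2, 38.1, 159, 125, 161 and 195 CPM, and climbed from SAT under HFD over SAT under chow and VAT to muscle with no overlap between neighbours.

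*Eng* was read at 64.3 CPM (WT) and 33.8 CPM (KO) in SAT on HFD, 83.2 and 82.1 CPM in SAT on chow, 327 and 260 CPM in VAT, and 278 and 377 CPM in muscle. Its VAT and muscle libraries overlapped. *Emcn* was the least abundant gene per kb in all but 1 library: 2.89 CPM in SAT HFD WT and 2.63 CPM in SAT HFD KO, from 20 and 34 counts, then 18.3 and 15.3 CPM in SAT on chow, 65.7 and 60.6 CPM in VAT, and 53.3 and 66.5 CPM in muscle. Counting error alone puts the SAT HFD values of *Emcn* between 1.77 and 4.47 CPM in WT and between 1.82 and 3.67 CPM in KO (exact Poisson, 95%), below both values of SAT on chow.

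**Figure D2:**
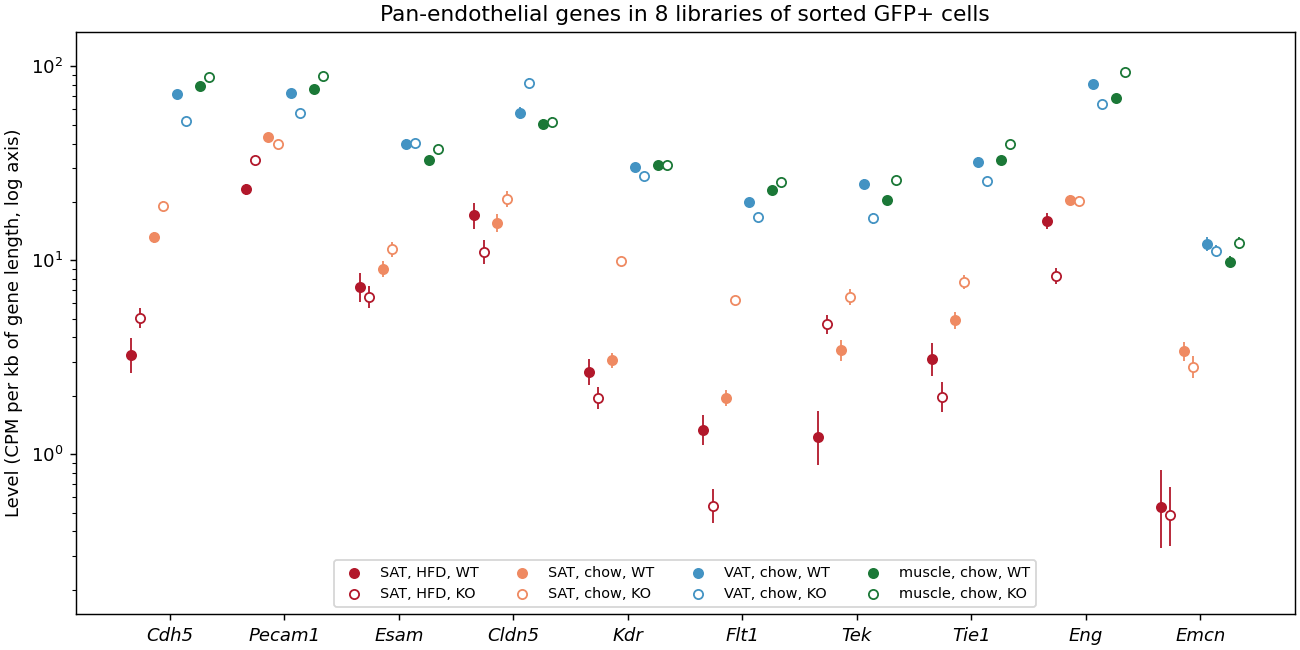
Level of each of the 10 genes (x axis) in the 8 libraries, in CPM per kb of gene length on a log axis; filled circles are WT, open circles KO, colours the tissue and diet, and bars the exact 95% Poisson interval, which covers counting error only. SAT libraries (red and orange) lie below VAT (blue) and muscle (green) for each gene, with the smallest gap for *Pecam1*.

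Per length, the order of the genes changed between SAT and the other tissues. In muscle *Pecam1* (76.8 and 88.8 CPM per kb), *Cdh5* (79.3 and 88.1) and *Eng* (68.6 and 93.2) overlapped at the top, followed by *Cldn5* at 50.3 and 51.7 CPM per kb. *Tie1*, *Esam* and *Kdr* then lay between 30.8 and 39.7 CPM per kb, with *Tie1* and *Esam* overlapping, *Tek* and *Flt1* overlapped between 20.4 and 25.9, and *Emcn* was last at 9.85 and 12.3. In VAT *Eng* (80.7 and 64.3 CPM per kb), *Pecam1* (72.9 and 57.8), *Cldn5* (57.7 and 82.6) and *Cdh5* (71.8 and 52.0) could not be ordered beyond the difference between their 2 libraries. In SAT *Pecam1* stood alone at the top, with 39.7 to 43.4 CPM per kb on chow against 20.3 to 20.6 for *Eng*, and with 23.2 to 32.8 on HFD against 11.1 to 17.1 for *Cldn5*. At the other end, *Emcn* was at 0.485 to 0.535 CPM per kb in SAT on HFD, just under the 0.543 to 1.34 of *Flt1*.

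The level of a gene relative to the mean of the other 9 genes of the same library, on the log2(CPM + 0.5) scale, depends on how the library is scaled only through the added 0.5 CPM, which weighs on low genes. *Pecam1* stood 3.17 and 3.85 above the others in SAT on HFD, 3.21 and 2.42 above in SAT on chow, 1.47 and 1.33 above in VAT, and 1.65 and 1.64 above in muscle. It made up 43.4% and 57.9% of the summed CPM of the 10 genes in SAT on HFD, 47.5% and 33.9% in SAT on chow, and 19.9% to 22.2% in VAT and muscle. No SAT library overlapped with a VAT or muscle library in this measure. *Emcn* stood 2.85 below the others in both libraries of SAT on HFD, and 1.07 to 1.99 below in the 6 other libraries. With nothing added, the *Emcn* values were −3.04 and −3.06 in SAT on HFD against −2.03 to −1.08 elsewhere. *Cdh5* stood −0.57 and 0.25 from the others in SAT on HFD against 0.53 to 1.07 above elsewhere. *Cldn5* and *Esam* went the other way, at −0.22 to 0.33 in SAT on HFD against −1.59 to −0.47 elsewhere. *Tie1* followed the others most closely, with an SD of 0.306 over the 8 libraries, and *Pecam1* least, with an SD of 0.962. T cell, B cell and pan-leukocyte markers were higher relative to the 10 genes in SAT. In CPM, and not relative to the 10 genes, macrophage markers were highest in VAT (13560 and 13380 CPM) and neutrophil markers highest in muscle (27500 and 31970 CPM). The part of any of these cells in the *Pecam1* value was not tested.

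**Figure D3:**
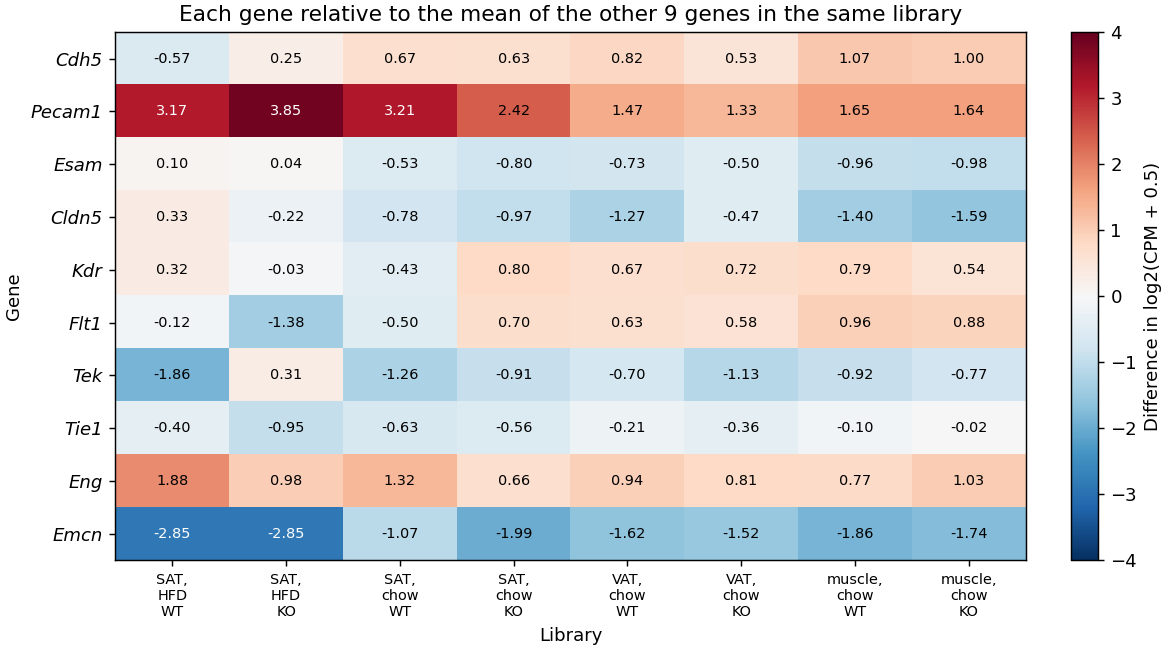
Difference in log2(CPM + 0.5) between each gene (rows) and the mean of the other 9 genes in the same library (columns); red is above and blue below the mean, and the number in a cell is the difference. *Pecam1* is 2.42 to 3.85 above in the SAT libraries and 1.33 to 1.65 above in VAT and muscle, and *Emcn* is 2.85 below in both SAT HFD libraries.

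The first comparison asked how the genes differ between fat depots on chow. All 10 genes were higher in both VAT libraries than in both SAT libraries, which held for 26.6% of the 16971 genes tested. In the quasi-likelihood test 6 of the 10 genes were higher in VAT at an adjusted p under 0.05, against 3.13% of all genes tested, and none was lower, against 1.87%. The junction genes *Cdh5* (log2 fold change 1.97 ± 0.36 SE, adjusted p = 0.0246), *Esam* (1.98 ± 0.30, adjusted p = 0.0137) and *Cldn5* (1.95 ± 0.37, adjusted p = 0.0273) were among them. So were *Tie1* (2.19 ± 0.38, adjusted p = 0.0206), *Eng* (1.82 ± 0.38, adjusted p = 0.0382) and *Emcn* (1.91 ± 0.34, adjusted p = 0.0204). The VEGF receptors and *Tek* had estimates of similar size with wider errors and did not pass: *Kdr* 2.23 ± 0.52 (adjusted p = 0.0538), *Flt1* 2.18 ± 0.62 (adjusted p = 0.0936) and *Tek* 2.20 ± 0.55 (adjusted p = 0.0642). *Pecam1* was at 0.66 ± 0.34 (adjusted p = 0.325). DESeq2's Wald test called 9 of the 10 higher, all but *Pecam1*, against 15.4% of the genes it tested in either direction. The median over the 10 genes was 1.98, beside −0.13 over all genes tested. The call rested on both VAT libraries, since no gene of the 10 passed when either was left out, where the remaining VAT library was assumed to vary like the other groups.

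In the same comparison, all 10 macrophage markers were higher in VAT and all 10 T cell markers and 6 of 8 B cell markers were lower, each at an adjusted p under 0.05. The part of this difference in cell make-up in the higher share of endothelial genes was not tested. When libraries were scaled instead to the summed counts of 20 other endothelial genes, none of the 10 genes passed, against 43.9% of all genes tested, with a median of 0.37 and *Pecam1* at −1.02 (adjusted p = 0.0764), while the median of all genes tested moved to −1.74. Such a scale removes by construction a shift that endothelial genes share. It therefore describes the 10 genes only relative to other endothelial genes. The reference list was led in SAT by *S1pr1*, which lymphocytes express, and in VAT by *Cd93*, which myeloid cells express. Without these 2 genes, an alternative chosen after seeing the data, *Pecam1* was the 1 gene of the 10 that passed, at −1.37 ± 0.45 (adjusted p = 0.0201), but 50.7% of all genes tested were called lower on that scale. The other 9 genes then lay between −0.16 and 0.33, none of them passed, and the median of the 10 was 0.02.

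Muscle compared with SAT on chow in a similar way. All 10 genes were higher in both muscle libraries, against 20.7% of genes tested, and 4 of the 10 passed the test, against 1.1% of all genes tested in that direction, while none was lower, against 0.165%. These were *Cdh5* (log2 fold change 2.39 ± 0.37, adjusted p = 0.0295), *Tie1* (2.52 ± 0.39, adjusted p = 0.0295), *Esam* (1.78 ± 0.30, adjusted p = 0.0371) and *Emcn* (1.84 ± 0.34, adjusted p = 0.0483). *Eng* was at 2.002 ± 0.385 (adjusted p = 0.0562), *Kdr* at 2.33 ± 0.52 (adjusted p = 0.0913), *Flt1* at 2.58 ± 0.62 (adjusted p = 0.110), *Tek* at 2.28 ± 0.54 (adjusted p = 0.105), *Cldn5* at 1.497 ± 0.365 (adjusted p = 0.114) and *Pecam1* at 0.99 ± 0.34 (adjusted p = 0.279). DESeq2's Wald test called 10 of the 10 higher, against 7.55% of the genes it tested in either direction. The median over the 10 genes was 2.14, beside −0.11 over all genes tested. None passed when either muscle library was left out, 1 passed without SAT HFD KO, 2 without either VAT library, and 8 without SAT chow KO. All 10 neutrophil markers were higher in muscle at an adjusted p under 0.05, and their part in the shares was not tested. Scaled to the other endothelial genes, which removes a shared shift by construction, none of the 10 passed, against 42.7% of all genes tested, with a median of 0.57. Without *S1pr1* and *Cd93* in that scaling, *Pecam1* passed at −1.23 ± 0.45 (adjusted p = 0.0299), on a scale where 56.1% of all genes tested were called lower and the median of the 10 was −0.04.

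VAT and muscle were not told apart by the 10 genes. None passed the test, none had an unadjusted p under 0.05, and 2.02% of all genes tested were called in either direction; DESeq2's Wald test also called none of the 10, against 8.04% of the genes it tested. The estimates ran from −0.45 ± 0.36 for *Cldn5* to 0.41 ± 0.35 for *Cdh5*, with a median of 0.14. In CPM 5 genes (*Cdh5*, *Pecam1*, *Kdr*, *Flt1* and *Tie1*) were higher in both muscle libraries than in both VAT libraries and 2 (*Esam* and *Cldn5*) lower, shares to be read beside 33.4% and 28.6% of genes tested. This comparison shares its libraries with both comparisons to SAT.

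The comparison of diets in SAT asked whether the genes differ after prolonged HFD feeding. In 8 of the 10 genes both HFD libraries were lower than both chow libraries, which held for 26.6% of genes tested, and *Cldn5* and *Tek* overlapped. None of the 10 passed the quasi-likelihood test, nor did any of all genes tested (0%), while 5 of the 10 had an unadjusted p under 0.05 and DESeq2's Wald test called 2, against 1.63% of the genes it tested. *Emcn* had the largest estimate, −2.60 ± 0.36 (adjusted p = 0.138), followed by *Flt1* at −2.10 ± 0.65 (adjusted p = 0.496) and *Cdh5* at −1.96 ± 0.37 (adjusted p = 0.184). The genes that DESeq2 called were *Emcn* and *Cdh5*. *Kdr* was at −1.41 ± 0.52 and *Tie1* at −1.33 ± 0.38, and *Tek*, *Eng*, *Pecam1*, *Esam* and *Cldn5* lay between −0.81 and −0.36. The median over the 10 genes was −1.07, beside −0.32 over all genes tested. Scaled to the other endothelial genes the median moved to −0.53, with *Emcn* at −2.12 and *Cdh5* at −1.43, and *Cldn5* turned to 0.17. *S1pr1* held 55.5% and 59.9% of that reference in SAT on HFD against 42.3% and 40.7% in SAT on chow. Without *S1pr1* and *Cd93* the median was −0.02, and *Pecam1*, *Esam*, *Cldn5*, *Tek* and *Eng* turned to between 0.22 and 0.68, while *Emcn* was at −1.61 and *Cdh5* at −0.92, with none of the 10 passing. This comparison holds the SAT HFD WT library, with the fewest counts of all, and the SAT chow WT library, with its low *Malat1* level. None of the 10 genes passed when either of them was left out, and 1 passed, *Emcn*, without SAT chow KO.

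**Figure D4:**
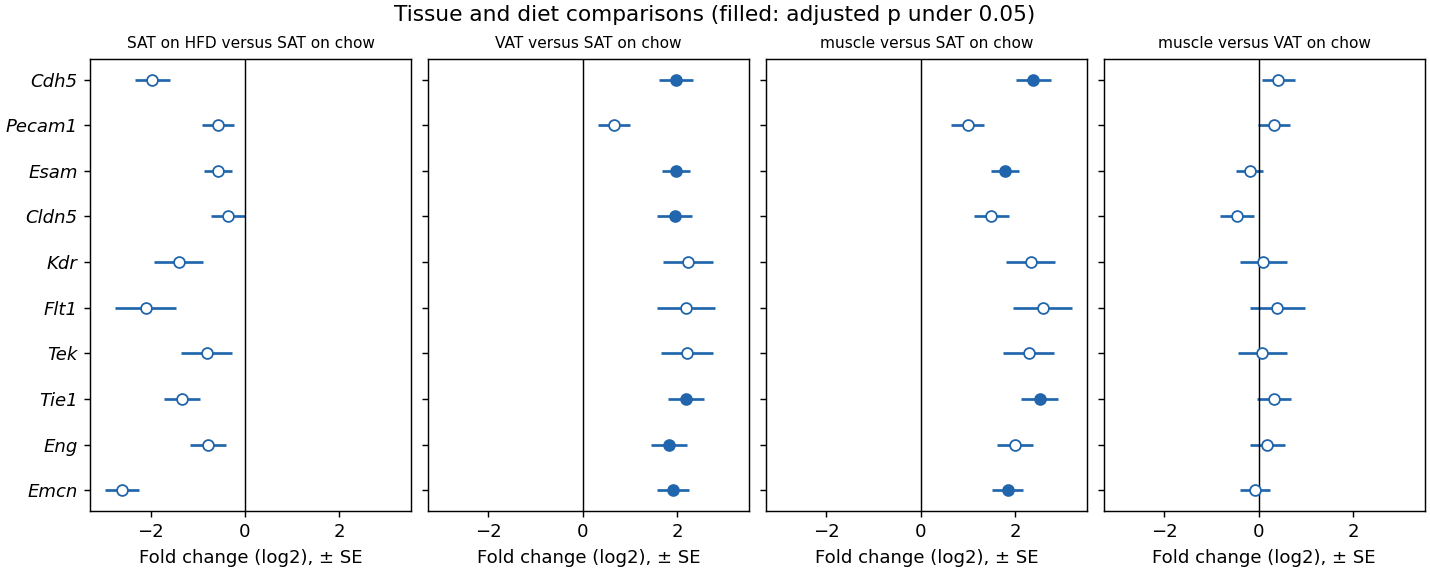
Log2 fold change with its SE for each of the 10 genes (rows) in the 4 tissue and diet comparisons (panels) from the edgeR fit over 8 libraries; filled circles have an adjusted p under 0.05. In VAT against SAT on chow 6 genes are filled and in muscle against SAT on chow 4, *Pecam1* lies closest to 0 in both, and no circle is filled in the 2 other panels.

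KO and WT were compared across the 4 pairs, to ask for a difference shared by tissues and diets. None of the 10 genes passed, against 0.00589% of all genes tested, which was 1 gene (*H2-Ea-ps*, named after its value was seen); none of the 10 had an unadjusted p under 0.05, and DESeq2's Wald test also called none, against 0.112% of the genes it tested. Estimates ran from −0.21 ± 0.27 for *Eng* to 0.61 ± 0.39 for *Tek* (unadjusted p = 0.153, adjusted p = 0.9996), with a median of 0.09. *Tek* was higher in the KO library of 3 pairs and lower in the library labelled KO of VAT. Since the few *Tert* counts leave the labels of the VAT pair unsettled, the fit without it was also made, and none of the 10 passed there either.

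Within a pair, 1 KO library stands against 1 WT library, so the ratios below describe those libraries, and their exact 95% binomial intervals cover counting error only. An interval narrows as the counts of a gene rise, and the genes tested went down to a mean of 10 counts. The shares of all genes given beside the 10 are therefore not matched for counts. In SAT on HFD 3 of the 10 intervals were above 0, as 39.4% of those of all genes tested were, 5 were below 0 (33.2% of all) and 2 spanned 0. *Tek* was 3.78-fold higher in KO (log2 1.92, interval 1.45 to 2.44), from 40 counts in WT and 285 in KO, and *Flt1* 2.45-fold lower (−1.29, interval −1.70 to −0.90). Of the 10 genes *Tek* was the one with an interval wholly beyond 2-fold, which 12.9% of genes tested had in the same direction. *Cdh5* (0.64) and *Pecam1* (0.50) were also higher in KO, and *Eng* (−0.93), *Tie1* (−0.64), *Cldn5* (−0.62) and *Kdr* (−0.44) lower. Relative to the other 9 genes *Tek* went from −1.86 in WT to 0.31 in KO, and scaled to the other endothelial genes its ratio was 1.67. Macrophage markers went from 691 to 407 CPM in this pair, WT to KO, while mural markers were at 154 and 150 CPM. Adipocyte markers went from 162 to 88.1 CPM, of which *Fabp4* alone gave 130 and 71.0 CPM. In each of these libraries 6 of the 10 adipocyte markers were at 0 counts. The part of these markers in the ratios was not tested.

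In SAT on chow the genes leaned to the KO library under TMM, with 7 intervals above 0 (41.1% of all genes tested), 2 below (40.2% of all) and 1 across, and a median of 0.48 that turned to −0.24 when libraries were scaled to the other endothelial genes. *Kdr* (444 counts in WT and 1440 in KO) was 3.25-fold higher in KO, at log2 1.70 with an interval of 1.55 to 1.86. *Flt1* (426 and 1358 counts) was 3.19-fold higher, at 1.67 with an interval of 1.52 to 1.84. Both lay wholly beyond 2-fold, as 19.1% of genes tested in this pair did in the same direction, and scaled to the other endothelial genes they stood at 0.99 and 0.96. *Tek* was at 0.91, *Tie1* at 0.65, *Cdh5* at 0.54, *Cldn5* at 0.41 and *Esam* at 0.34, and *Pecam1* and *Emcn* were lower in KO at −0.13 and −0.26. Between these 2 libraries stromal markers went from 936 to 3533 CPM, mural markers from 71.7 to 236 CPM, T cell markers from 4699 to 1816 CPM and *Malat1* from 299 to 6005 CPM, WT to KO. Their part in the ratios was not tested. With the trend on gene length removed, *Kdr* was at 1.10 and *Flt1*, the longest of the 10 genes, at 0.81, while *Cldn5*, the shortest, stood at 1.21, then the largest of the 10, *Esam* was at 0.78, and the median at 0.79.

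In VAT, for the library labelled KO over the one labelled WT, 7 intervals lay below 0 (24.7% of all genes tested), 1 above (26.6% of all) and 2 across. The median was −0.29, or −0.07 when scaled to the other endothelial genes. *Cldn5* stood out at 0.52 (interval 0.39 to 0.64), against *Tek* at −0.59, *Cdh5* at −0.47, and *Tie1*, *Pecam1*, *Eng*, *Flt1* and *Kdr* between −0.34 and −0.16. None of the 10 lay beyond 2-fold, against 4.5% of genes tested. Mural markers went from 184 CPM in the library labelled WT to 748 CPM in the one labelled KO and stromal markers from 1150 to 2402 CPM, and their part in the ratios was not tested.

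In muscle 8 intervals lay above 0, against 27.1% of all genes tested, none lay below, against 28.9%, and 2 lay across. The 10 genes had 868 to 7797 counts in these libraries, at which small ratios can exclude 0. The median of 0.20 turned to −0.10 when scaled to the other endothelial genes. The ratios were small, from −0.01 for *Kdr* to 0.44 for *Eng*, none beyond 2-fold against 4.77% of genes tested. *Tek* was at 0.35, *Emcn* at 0.32 and *Tie1* at 0.28. From WT to KO, mural markers went from 180 to 384 CPM, stromal markers from 838 to 1573 CPM, and platelet and erythroid markers from 681 to 145 CPM, and their part in the ratios was not tested. Set side by side, *Tek* was at 1.92 and *Flt1* at −1.29 in SAT on HFD, at 0.91 and 1.67 in SAT on chow, at −0.59 and −0.25 in VAT, and at 0.35 and 0.14 in muscle. The SAT pairs, with the larger ratios for these genes, also had the fewest counts of the 10 genes, and their libraries differed in marker sums as given above. The part of either in the ratios was not tested. For 9 of the 10 genes the interval lay above 0 in 1 pair and below 0 in another, as it did for 65.2% of the genes tested in all 4 pairs.

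**Figure D5:**
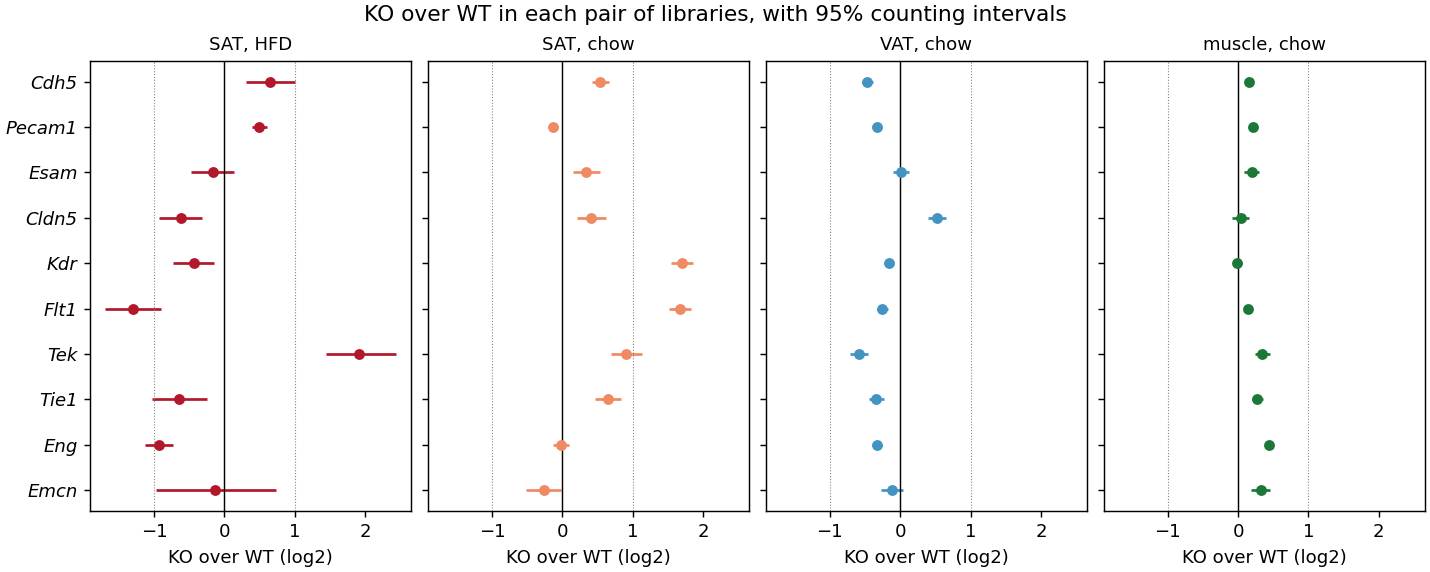
Log2 ratio of the KO to the WT library for each of the 10 genes (rows) in the 4 pairs (panels), with exact 95% binomial intervals that cover counting error only; dotted lines mark 2-fold. *Tek* in SAT on HFD and *Kdr* and *Flt1* in SAT on chow lie wholly beyond 2-fold, and all ratios in VAT and muscle lie within it.

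The junction partners, ligands, co-receptors and transcription factors of the same pathways were followed as a list of 63 genes, 61 of which were tested. In VAT over SAT on chow 11 of the 61 were higher and none lower, against 3.13% and 1.87% of all genes tested, with a list median of 1.21. By role these were 5 of 22 junction partners, 2 of 8 VEGF receptors and ligands, 1 of 6 angiopoietin-TIE genes, 2 of 11 endoglin-ALK1-BMP genes and 1 of 14 endothelial transcription factors. The largest were *Ptprb*, the phosphatase VE-PTP that acts on TIE2 and VE-cadherin (log2 fold change 2.84 ± 0.61, adjusted p = 0.0412), the VEGF and semaphorin co-receptor *Nrp2* (2.78 ± 0.42, adjusted p = 0.0135) and plakoglobin *Jup*, which binds the VE-cadherin tail (2.58 ± 0.28, adjusted p = 0.00532). In muscle over SAT on chow 6 of the 61 were higher and none lower, against 1.1% and 0.165% of all genes tested, led by the ligand gene *Bmp6* (3.40 ± 0.59, adjusted p = 0.0410) and the transcription factor genes *Gata2* (3.39 ± 0.49, adjusted p = 0.0252) and *Erg* (2.62 ± 0.45, adjusted p = 0.0399). These counts turned with the scaling. Scaled to the 20 other endothelial genes, 1 of the 61 was higher and 11 lower in VAT (median −0.43), against 0.772% and 43.1% of all genes tested, and 2 were higher and 12 lower in muscle (median −0.22), against 0.63% and 42.1%. Without *S1pr1* and *Cd93* none was higher and 12 were lower in VAT (median −0.78), against 0.554% and 50.7%, and none was higher and 20 lower in muscle (median −0.83), against 0.418% and 56.1%. The 6 genes named kept estimates above 0 in the comparison they are named for under both scalings, where *Ptprb* in VAT and *Gata2* in muscle passed under the first and none under the second. Under TMM and both endothelial scalings, none of the 61 passed in the HFD, the muscle against VAT or the KO comparison. Not all of the list is particular to endothelium: its most abundant gene in 7 of the 8 libraries was *Ets1*, at 576 CPM or more in those, which lymphocytes also express.

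The genes whose levels followed the 10 genes most closely were found by the SD, over the 8 libraries, of their log2(CPM + 0.5) less the mean of the 10 genes, among 16960 other genes. The smallest were *Tm4sf1* (SD 0.180), which codes for a membrane protein of the tetraspanin-like L6 family, *Ehd2* (0.183) and *Cav2* (0.218), both genes of caveolae, and *Robo4* (0.194), an endothelial roundabout receptor. *Crip2* (0.222), *Pls3* (0.226), which codes for an actin-bundling plastin, *Dab2ip* (0.263) and the junction gene *Jam2* (0.268) followed. *Fgf9* (0.238) and *Gkn3* (0.265) were also among the 10, with at most 4.44 and 5.97 CPM and 0 CPM in at least 1 library, where the added 0.5 CPM weighs most. *Tm4sf1* ran from 17.5 to 188 CPM and *Ehd2* from 17.5 to 261 CPM. The median SD over all genes was 1.55, and these likenesses share the 8 libraries and their cell make-up.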

How the data were processed

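RNAseq counts per gene were analysed in 8 libraries of FACS-sorted mG+ cells (1 per genotype in each of 4 tissue and diet pairs), grouped by tissue, diet and genotype as the sample labels give them. The deposited values are raw read counts per Ensembl gene with no normalization by the authors, with gene names, GRCm38 coordinates and lengths beside them. The submitters' processing notes name HISAT2 2.0.5 and GRCm38 (mm10). The counting program, the annotation release and the use of strand are not given in the sources used here. For RNA isolation the labels name a column kit and the study's methods name Trizol, and for libraries the labels name a SMARTER mRNA kit. No reads were processed.

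Counts were scaled by TMM over all genes, and the 16971 genes whose mean reached 10 counts were tested by edgeR's quasi-likelihood test (edgeR 4.0.16, R 4.3.3, robust dispersions) with tissue and diet pair and genotype as terms in 1 fit of all 8 libraries, which left 3 residual degrees of freedom. The test moderates the spread of each gene by that of all genes, so its p-values rest on more than these 3. p-values were adjusted by Benjamini-Hochberg over all genes tested at 0.05, and the SE is the fold change divided by the root of its F statistic. CPM per kb used the deposited gene length. KO over WT within a pair is a log2 ratio with a prior count of 0.5 and an exact conditional binomial (Clopper-Pearson) 95% interval; reads carry no molecular identifiers, so intervals cover counting error only. The code was also run on simulated counts, with set dispersions for the fit and Poisson counts, which the intervals assume, for the intervals. Such runs check the code and do not show how well either holds for these libraries.

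All 10 genes passed the filter and are named. From the pathway list the genes named are those past the threshold with the largest changes, at most 3 in a direction, and the 10 genes most like the members by the SD of the log2 ratio. The members and lists were chosen with earlier results of these data known. Nothing says that the libraries came from separate mice, so p-values measure the spread between these libraries. Alternatives were DESeq2 (1.42.0) size factors and Wald test, library totals, scaling to 20 endothelial genes (and to 18, chosen after seeing the data), other count filters, no block or genotype term, leaving out each pair or library, a prior count of 5, the mean of the genes, and removal of the trend on gene length in 100 bins.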

Additional observations from a re-analysis of the deposited data

Results flagged for a closer look

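For 9 of the 10 genes, all but *Esam*, the KO to WT ratio had a counting interval above 0 in 1 pair and below 0 in another. The same held for 65.2% of all genes tested in the 4 pairs. The difference between pairs was not tested, since each pair holds 1 library per genotype. The log2 ratio of *Flt1* in SAT on chow exceeded that in SAT on HFD by 2.97, and the same gap was 2.14 for *Kdr* and 1.29 for *Tie1*. *Tek* was higher in SAT on HFD than in VAT by 2.51, *Cdh5* by 1.11 and *Pecam1* by 0.835. *Cldn5* was higher in VAT than in SAT on HFD by 1.14. *Eng* was higher in muscle than in SAT on HFD by 1.37, and *Emcn* higher in muscle than in SAT on chow by 0.583. The VAT values carry the doubt about the genotype labels of that pair.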

How the results depend on the processing

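Settings are compared with the fits described above, with changes given as log2 fold changes. KO and WT libraries were paired by tissue and diet, as a term in the fit of genotypes. No pairing by replicate was possible, because the labels carry no replicate numbers. Without the tissue and diet term the genotype estimates, none past the threshold, were −0.0272 for *Cdh5*, 0.0361 for *Tie1*, 0.00166 for *Eng* and 0.0472 for *Emcn*, with 0 genes called. In the comparison of KO with WT none of the 10 genes passed under any setting run. *Tie1* turned to 0.01425 with DESeq2 size factors, 0.01177 in DESeq2's Wald test and 0.11 with library totals, where *Emcn* was at 0.0713. Scaled to the endothelial list *Cdh5* was at −0.0509, *Pecam1* −0.20, *Esam* −0.17, *Cldn5* −0.17 and *Flt1* −0.17, and without *S1pr1* and *Cd93* *Pecam1* was at −0.15, *Esam* −0.12, *Cldn5* −0.13 and *Flt1* −0.12, with 2 genes called. Genes called numbered 42 with genes of at least 1 count in total and 19 by DESeq2's Wald test. Leaving out 1 pair gave ranges of −0.0862 to 0.22 for *Pecam1*, −0.21 to 0.20 for *Tie1*, −0.43 to 0.0306 for *Eng*, −0.0269 to 0.32 for *Cldn5*, −0.20 to 0.49 for *Kdr*, −0.41 to 0.50 for *Flt1* and −0.18 to 0.0461 for *Emcn*, and 0 to 2 genes called.

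For SAT on HFD against chow, 3 of the 10 genes and 317 genes in all passed with genes of at least 1 count in total, 2 and 260 by DESeq2's Wald test, and 3 genes in all under each endothelial scaling. *Cldn5* was at 0.17 under the endothelial list, and without *S1pr1* and *Cd93* *Pecam1* was at 0.42, *Esam* 0.46, *Cldn5* 0.68, *Tek* 0.22 and *Eng* 0.23. Leaving out 1 library gave 0 to 1 of the 10 genes, 0 to 441 genes in all and −0.70 to 0.0861 for *Cldn5*. For VAT against SAT on chow, the endothelial list gave 0 of the 10 genes and 7447 genes in all, and without *S1pr1* and *Cd93* 1 and 8694. *Pecam1* was at −1.02 and −1.37 under these scalings, and under the second *Cdh5* was at −0.0344, *Eng* −0.16 and *Emcn* −0.0892. With genes of at least 1 count in total 2100 genes passed, and by DESeq2's Wald test 2305. Leaving out 1 library gave 0 to 9 of the 10 genes and 108 to 3510 genes in all.

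For muscle against SAT on chow, the endothelial list gave 0 of the 10 genes and 7245 genes in all, and without *S1pr1* and *Cd93* 1 and 9591. *Pecam1* was at −0.61 and −1.23 and *Cldn5* at −0.0633 and −0.68 under these, and under the second *Esam* was at −0.40, *Eng* −0.20 and *Emcn* −0.39. With genes of at least 1 count in total 9 of the 10 and 971 genes in all passed, by DESeq2's Wald test 10 and 1058, and with no genotype term 338 genes in all. Leaving out 1 library gave 0 to 8 of the 10 genes and 39 to 1771 genes in all. For muscle against VAT, where none of the 10 passed under any setting run, *Tek* turned to −0.00104 with DESeq2 size factors and −0.00386 in its Wald test, and without *S1pr1* and *Cd93* *Kdr* was at −0.0895, *Tek* −0.0490 and *Eng* −0.0378. Genes called in all were 1159 with at least 1 count in total, 1258 by DESeq2's Wald test and 539 with no genotype term. Leaving out 1 library gave −0.0781 to 0.90 for *Cdh5*, −0.24 to 0.39 for *Kdr*, −0.66 to 1.02 for *Tek*, −0.34 to 0.16 for *Emcn*, −0.29 to 0.58 for *Eng*, and 39 to 1264 genes in all. The median KO to WT ratio in SAT on chow was −0.24 under the endothelial list and −0.22 without *S1pr1* and *Cd93*; in muscle it was −0.10 and −0.0674, and 0.36 with library totals. The causes were not tested, beyond what the number of genes tested or the scaling sets by construction. A mean of at least 50 counts and the other settings left the direction of the medians and the counts of calls within 1.5 times.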
